A study of Mus musculus with 6 samples.

Results

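The small leucine-rich proteoglycans are a family of secreted matrix proteins, and the 10 genes described here were chosen by symbol: Dcn, Bgn, Aspn, Fmod, Lum, Prelp, Omd, Epyc, Ogn and Chad. All 10 had a row among the 24346 gene symbols of the deposited table. The rule is family membership and uses no measured value, but the family was picked for description with earlier results of these data known. Expression was read by RNA-seq in primary articular chondrocytes, the cells that make joint cartilage, from cartilage of ICR mice at postnatal day 4. There were 3 control libraries and 3 libraries from cells stimulated with semaphorin 4D (Sema4D), a ligand of plexin receptors. The table's stimulated columns were taken as the Sema4D libraries from the wording of the treatment protocol and their replicate numbers. Both groups had the same strain, tissue and age. ICR is an outbred strain, no genetic change is named in the labels, and the sources used here give no dose, duration or control medium. Whether the replicates came from separate cultures or animals is not in the labels. The p-values therefore reflect library-to-library spread alone, part or all of which could be technical.

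Each of these proteins is built from a curved stack of leucine-rich repeats that binds collagen fibrils, and most carry chondroitin, dermatan or keratan sulphate chains. They are grouped by sequence into classes: decorin (Dcn), biglycan (Bgn) and asporin (Aspn) in class I, fibromodulin (Fmod), lumican (Lum), PRELP and osteomodulin (Omd) in class II, epiphycan (Epyc) and osteoglycin (Ogn) in class III, and chondroadherin (Chad) in class IV. In cartilage they set fibril diameter and spacing, link fibrils to other matrix molecules, and hold growth factors of the TGF-beta family.

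With Sema4D, Lum, Dcn and Prelp rose, and Aspn, Omd, Ogn, Fmod and Epyc fell. The 3 genes of a cluster on chromosome 13, Aspn, Omd and Ogn, fell 2.66-fold to 3.4-fold by the ratio of mean FPKM, the fragment count scaled to transcript length and library depth. Bgn, the most abundant member, and Chad, the least abundant, did not pass the test. So 8 of 10 members passed limma at an adjusted p under 0.05, 3 higher and 5 lower, where 46.7% of the 11603 tested genes passed, 24.5% higher and 22.2% lower. The median log2 fold change was -0.09 over the members and 0.01 over all tested genes. In 9 of the 10 the control and Sema4D libraries did not overlap, against 56.6% of tested genes. Among the calls over all genes 52.4% were higher, or 38.8% after quantile normalization and 39.7% after median scaling, and the median of all tested genes was then -0.05 under either scaling. All fold changes called log2 are differences of log2(FPKM + 1), Sema4D minus control. In bulk libraries fewer cells of a type and less RNA per cell cannot be told apart.

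**Figure D1:**
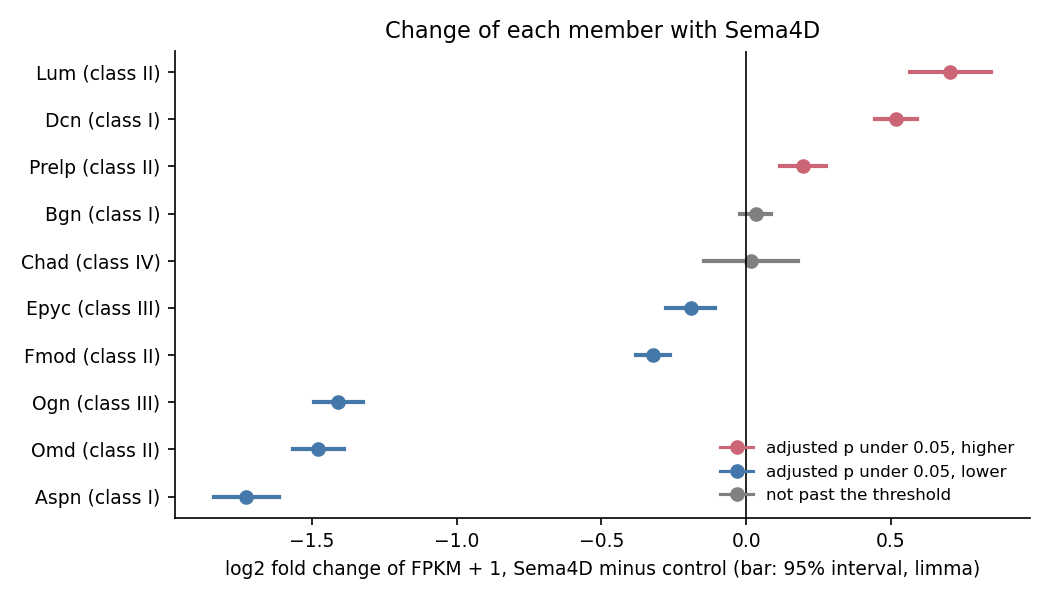
Log2 fold change of each of the 10 genes (x axis, log2(FPKM + 1), Sema4D minus control) with its 95% interval from limma, 3 libraries per group. Aspn, Omd and Ogn lie at -1.73 to -1.41, apart from the other members, while the intervals of Bgn and Chad include 0.

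FPKM columns summed to 492708 to 494123 in control and 518901 to 527492 in Sema4D libraries. From the spacing of the lowest values, 1 fragment per kilobase was estimated to be worth 0.0563 to 0.0762 FPKM. At that depth Chad rested on 106 to 157 and Bgn on 22000 to 31200 fragments per kilobase. No member had a value of 0 in any library, and the coefficient of variation within a group was 0.784% to 8.52%.

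Asporin, a class I protein with an aspartate-rich stretch in place of a glycosaminoglycan chain, binds collagen and restrains TGF-beta in chondrocytes. Aspn (chromosome 13, 49544443 to 49567565 in GRCm38, the assembly of mm10) stood at 83.1, 86.2 and 82.2 FPKM in control libraries 1, 2 and 3 and at 24.9, 26.2 and 22.9 FPKM in Sema4D libraries 1, 2 and 3, the order used throughout. Every control library was above every Sema4D library, with no value between 26.2 and 82.2 FPKM. The group means were 83.8 ± 2.11 and 24.7 ± 1.65 FPKM (SD, n = 3 each), a log2 fold change of -1.73 (SE 0.049, limma adjusted p = 3.12e-08). On the scale of log2(FPKM + 1), which understates the falls of low genes, this was the 11th largest fall among the 2581 lower genes. The ranks of Omd and Ogn below are on the same scale.

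Osteomodulin, an acidic keratan sulphate proteoglycan known from mineralizing tissue, is encoded by the next gene, Omd (49582462 to 49592612). It was at 51.7, 48.7 and 52.7 FPKM in control and 17.4, 17.8 and 17.8 FPKM in Sema4D libraries. The Sema4D libraries were almost level with each other, at 17.7 ± 0.238 FPKM against 51.0 ± 2.09 FPKM in control. The log2 fold change was -1.48 (SE 0.038, adjusted p = 1.98e-08), the 19th largest fall.

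Osteoglycin, also called mimecan, is encoded by Ogn (49608015 to 49624501), the third gene of the row. It was at 476, 462 and 448 FPKM in control and 165, 178 and 177 FPKM in Sema4D libraries. The groups were far apart, at 462 ± 13.7 and 174 ± 7.08 FPKM, for a log2 fold change of -1.41 (SE 0.037, adjusted p = 2.14e-08), the 24th largest fall. In FPKM this was the largest change of any member, a drop by 289.

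The 3 genes lie on the plus strand in a row of 80.1 kb. Their neighbour on the left, Ecm2, which encodes a related leucine-rich repeat protein, lies 11.7 kb before Aspn and fell from 6.86 ± 0.493 to 3.64 ± 0.281 FPKM (log2 fold change -0.76, adjusted p = 3.77e-05). Nol8, 28.6 kb to the right of Ogn, was at 5.21 ± 0.44 and 5.46 ± 0.223 FPKM (0.06, adjusted p = 0.483). Cenpp, a centromere protein gene on the minus strand, spans Ecm2 and all 3 members, and fell from 4.69 ± 0.226 to 3.37 ± 0.144 FPKM (-0.38, adjusted p = 0.000862). No source used here states the strand setting of the counting, so reads of overlapping genes on opposite strands cannot be told apart. In GENCODE M21 the exons of Cenpp share 7 of 2354 exonic nucleotides with Aspn and 0 with Omd and Ogn. Within 240 kb of the row, 7 other genes were tested, of which 5 fell and 1 rose, where 22.2% of all tested genes were lower and 24.5% higher. That window was set after a plot with 300 kb had been seen, to clear its labels, and 300 kb gave the same 7, 5 and 1. Ippk, named after its values were seen, fell from 6.49 ± 0.538 to 4.41 ± 0.209 FPKM (-0.47).

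**Figure D2:**
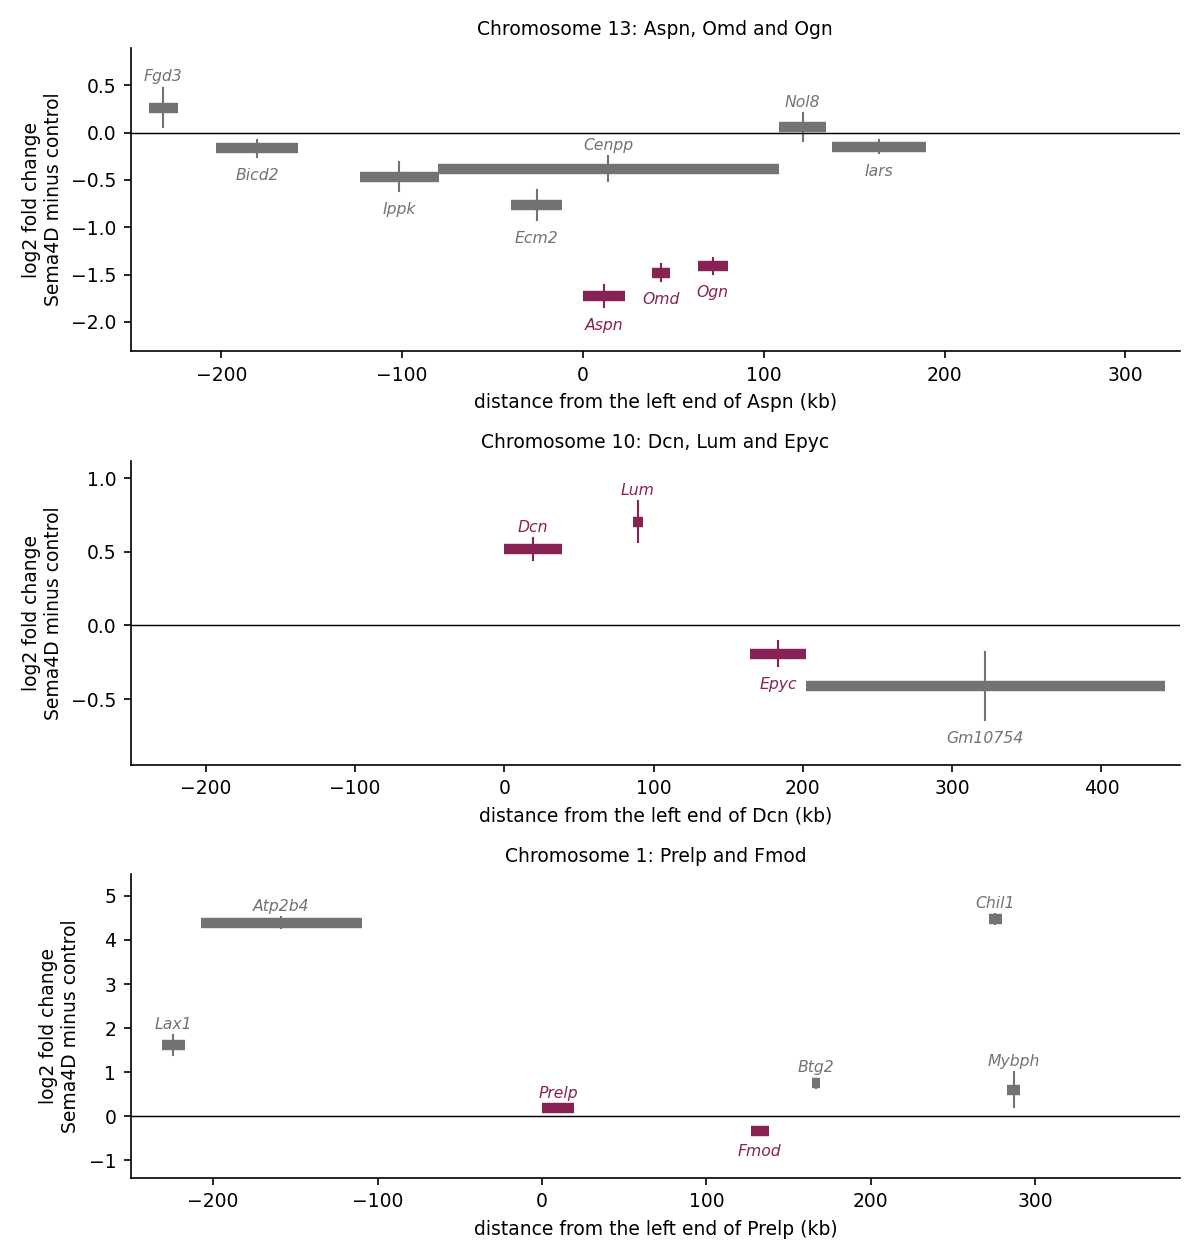
Log2 fold change (y axis, Sema4D minus control, vertical bars 95% intervals from limma) of every tested gene within 240 kb of the members at 3 loci, drawn against distance along the chromosome from the left end of the first member in kb. Purple marks members and grey other genes. Aspn, Omd and Ogn lie lower than every other gene of their panel, Dcn and Lum lie above 0 and Epyc below it, and Prelp and Fmod lie on opposite sides of 0.

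Because the 3 genes moved together, the 250 bases before each RefSeq start (GRCm38.p6) are given, 5′ to 3′. Capitals mark any match, on either strand, to the TATA box TATAAA, the AP-1 motif TGANTCA, the RUNX motif TGTGGT, the C/EBP motif TTGCNNAA or the NF-kappaB consensus.
Aspn promoter, chr13:49544193-49544442, plus strand: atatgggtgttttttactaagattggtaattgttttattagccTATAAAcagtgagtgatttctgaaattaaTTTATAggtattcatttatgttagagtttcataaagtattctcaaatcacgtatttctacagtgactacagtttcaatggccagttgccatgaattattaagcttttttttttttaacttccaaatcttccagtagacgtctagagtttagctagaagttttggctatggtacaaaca
Omd promoter, chr13:49582212-49582461, plus strand: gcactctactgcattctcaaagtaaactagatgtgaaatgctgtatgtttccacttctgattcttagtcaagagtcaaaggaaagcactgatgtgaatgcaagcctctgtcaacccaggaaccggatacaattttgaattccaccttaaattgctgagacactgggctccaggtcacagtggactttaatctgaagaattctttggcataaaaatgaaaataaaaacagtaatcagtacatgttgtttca
Ogn promoter, chr13:49607765-49608014, plus strand: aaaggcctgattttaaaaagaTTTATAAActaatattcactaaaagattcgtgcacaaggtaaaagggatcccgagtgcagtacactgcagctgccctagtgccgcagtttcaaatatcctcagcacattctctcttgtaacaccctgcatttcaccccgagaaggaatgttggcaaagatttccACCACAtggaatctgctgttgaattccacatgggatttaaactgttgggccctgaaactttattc
These windows were poor in G and C, at 30%, 38.4% and 42% for Aspn, Omd and Ogn, against a median of 52.4% over 32851 RefSeq promoters. Low values were not limited to that row: the 2 Epyc windows were at 39.2% and 31.2%. Fmod was at 51.2%, Prelp at 55.6%, Chad at 60.4% and Bgn at 64.4%. The Prelp window (133921402 to 133921651, minus strand) and the second Epyc window (97646853 to 97647102) lie inside the spans of their genes, before internal starts. Aspn held the letters TATAAA on the plus strand from 207 and on the minus strand from 178 bases before its start. In Ogn they lay on both strands from 229 and 227 bases before it, in matches that overlap, and a RUNX match on the minus strand began 65 bases before it. The Omd window held none of the 5 motifs. Outside the row, Chad held TATAAA on the plus strand from 28 bases before its start. Whether any of these matches is in use was not tested. Of the 9 windows that RefSeq gave for 8 members, the others being Dcn and Lum, 3 held TATAAA, 1 RUNX, 1 C/EBP, 0 AP-1 and 0 NF-kappaB. The shares over all promoters were 12.4%, 14%, 9.56%, 6.75% and 3.9%.

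Decorin binds collagen fibrils through its repeats, carries a chondroitin or dermatan sulphate chain and holds TGF-beta. Dcn (chromosome 10, 97479500 to 97518163) was at 259, 246 and 242 FPKM in control and 357, 363 and 351 FPKM in Sema4D libraries. The lowest Sema4D library was well above the highest control library, and the means were 249 ± 8.74 and 357 ± 5.98 FPKM. Dcn rose 1.43-fold (log2 fold change 0.52, SE 0.032, adjusted p = 3.34e-06).

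Lumican, a keratan sulphate proteoglycan, competes with fibromodulin for a site on collagen. Lum (97565501 to 97572703), which follows Dcn after 47.3 kb on the same strand, was at 149, 137 and 128 FPKM in control and 210, 231 and 236 FPKM in Sema4D libraries. The groups did not overlap, and the rise from 138 ± 10.3 to 226 ± 13.9 FPKM was 1.63-fold (0.71, SE 0.061, adjusted p = 2.86e-05).

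Epiphycan is a dermatan sulphate proteoglycan of growth plate and epiphyseal cartilage. Epyc (97644068 to 97681908), further along the same chromosome, was at 51.7, 48.5 and 49.2 FPKM in control and 43.0, 44.9 and 42.6 FPKM in Sema4D libraries. The fall was small next to that of Ogn, its relative in class III, from 49.8 ± 1.67 to 43.5 ± 1.24 FPKM (-0.19, SE 0.037, adjusted p = 0.00303), or 12.7% of the control mean. Gm10754, a long noncoding RNA gene on the other strand, shares 1041 of the 2561 exonic nucleotides of Epyc, and fell from 5.29 ± 0.696 to 3.73 ± 0.488 FPKM (-0.41, adjusted p = 0.0106). Reads of these 2 genes cannot be told apart where they overlap. Kera, which encodes the corneal proteoglycan keratocan and lies between Lum and Epyc, was under the filter of a mean of 1 FPKM. Its values were 0.468, 0.493 and 0.377 FPKM in control and 0.351, 0.171 and 0.0756 FPKM in Sema4D libraries.

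Fibromodulin carries keratan sulphate, organizes collagen into thick fibrils and helps their cross-linking. Fmod (chromosome 1, 134037254 to 134048280) was at 878, 900 and 912 FPKM in control and 715, 708 and 729 FPKM in Sema4D libraries. All Sema4D libraries were below all controls, with means of 897 ± 17 and 717 ± 10.8 FPKM (-0.32, SE 0.026, adjusted p = 1.84e-05). The fall of 20.0% was modest as a fold but, at 179 FPKM, the second largest change of a member in level.

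PRELP has a basic N-terminal part that binds heparan sulphate and ties basement membranes to collagen. Prelp (133910304 to 133930102) lies 107 kb from Fmod on the opposite strand and was at 142, 145 and 152 FPKM in control and 171, 169 and 164 FPKM in Sema4D libraries. The groups did not overlap, and the mean rose by 14.7%, from 146 ± 5.62 to 168 ± 3.61 FPKM (0.20, SE 0.034, adjusted p = 0.00178). After quantile normalization the change was 0.08 and past the threshold no longer (adjusted p = 0.077, range over the alternatives 0.0014 to 0.077). Within 240 kb of Prelp and Fmod all 5 other tested genes rose, and all 8 within 300 kb, where 24.5% of all tested genes were higher. Lax1 (0.0285 ± 0.0289 and 2.16 ± 0.261 FPKM) and Mybph (0.602 ± 0.157 and 1.48 ± 0.546 FPKM), both within 240 kb, reached the filter only through their Sema4D values. These 2 could therefore enter only as rises. Also among the 5 was Btg2, next to Fmod and known for restraining cell division (from 8.11 ± 0.1 to 14.3 ± 0.629 FPKM, 0.75). Optc, the opticin gene next to Prelp, was under the filter at 0.214 ± 0.0455 and 0.13 ± 0.0403 FPKM.

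Biglycan, which carries chondroitin or dermatan sulphate chains, binds collagen and, when released, Toll-like receptors. Bgn (chromosome X, 73483601 to 73495936) was at 1679, 1711 and 1713 FPKM in control and 1757, 1734 and 1733 FPKM in Sema4D libraries. The Sema4D libraries were all above the controls, but by less than the test required, with means of 1701 ± 19.3 and 1741 ± 13.6 FPKM (0.03, adjusted p = 0.267). The 95% interval of the change ran from 0.987-fold to 1.06-fold, and the sign turned after quantile normalization (-0.04) and median scaling (-0.02). Haus7, the neighbour on the left, was at 21.6 ± 0.744 and 21.3 ± 1.03 FPKM (-0.01, adjusted p = 0.813).

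Chondroadherin, which has no glycosaminoglycan chain, binds chondrocytes through an integrin. Chad (chromosome 11, 94565047 to 94569127) was at 8.06, 8.37 and 9.46 FPKM in control and 8.82, 8.06 and 9.35 FPKM in Sema4D libraries. The groups overlapped over most of their range, and the means were 8.63 ± 0.736 and 8.74 ± 0.648 FPKM (0.02, adjusted p = 0.86). Its interval, 0.904-fold to 1.13-fold, was the widest of the 2 members that did not pass. Acsf2, on the other strand, spans Chad without sharing an exon and fell from 7.22 ± 0.238 to 6.09 ± 0.129 FPKM (-0.21, adjusted p = 0.0059). The genes on either side did not pass. Rsad1 was at 2.27 ± 0.348 and 2.69 ± 0.0922 FPKM (0.18, adjusted p = 0.125). Lrrc59 was at 87.5 ± 0.52 and 90.2 ± 0.763 FPKM (0.04, adjusted p = 0.191).

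**Figure D3:**
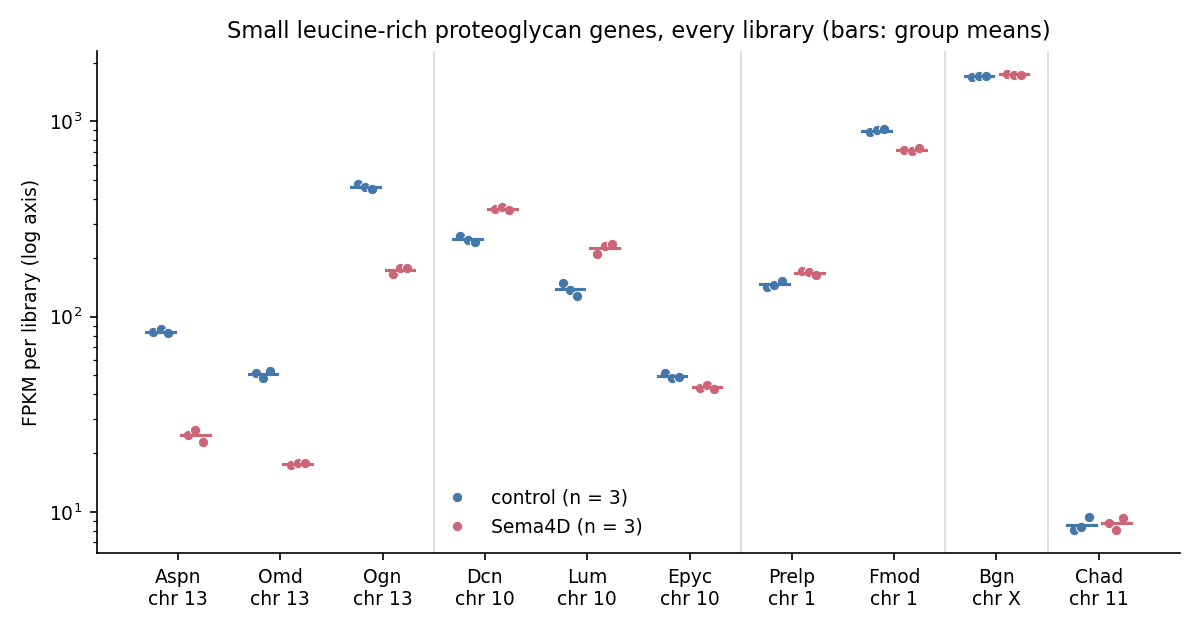
FPKM of each member (y axis, log scale) in every library, blue for the 3 control and red for the 3 Sema4D libraries, with bars at group means, ordered by chromosome. The points of the 2 groups are widely apart for Aspn, Omd and Ogn, closer for Dcn, Lum, Prelp, Fmod and Epyc, and mixed for Chad.

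FPKM is scaled to transcript length, so levels can be set side by side. In control libraries the order of mean FPKM was Bgn, Fmod, Ogn, Dcn, Prelp, Lum, Aspn, Omd, Epyc and Chad. Neighbours in that order were apart in every library except Prelp and Lum (ratio of means 1.06) and Omd and Epyc (1.03), whose ranges overlapped. With Sema4D the order was Bgn, Fmod, Dcn, Lum, Ogn, Prelp, Epyc, Aspn, Omd and Chad, and only Ogn and Prelp overlapped (1.03). Ogn moved from the third place to the fifth, behind Dcn and Lum, and Epyc passed both Aspn and Omd. Among the 11603 tested genes Bgn was the 33rd most abundant in control and the 35th with Sema4D, whereas Ogn went from the 155th to the 388th place.

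The summed FPKM of the 10 genes was 3777, 3793 and 3790 in control and 3470, 3480 and 3482 in Sema4D libraries. The sum was thus lower in every Sema4D library, by 8.16%, from 3787 ± 8.66 to 3478 ± 6.76 FPKM (exact permutation test, two-sided, p = 0.1, the smallest p that 3 against 3 libraries allow). As a share of all FPKM in a library it was 0.767% ± 0.00265 in control and 0.666% ± 0.00687 with Sema4D. Losses of 381 FPKM from Aspn, Omd and Ogn together and of 179 FPKM from Fmod stood beside gains of 196 FPKM from Dcn and Lum together. Bgn made up 44.9% ± 0.412 of the sum in control and 50.1% ± 0.49 with Sema4D. Ogn went from 12.2% ± 0.384 to 4.99% ± 0.194 of the sum, Dcn from 6.58% ± 0.245 to 10.3% ± 0.176, Lum from 3.65% ± 0.279 to 6.49% ± 0.387 and Fmod from 23.7% ± 0.404 to 20.6% ± 0.302. These are shares of transcript signal, not of protein.

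**Figure D4:**
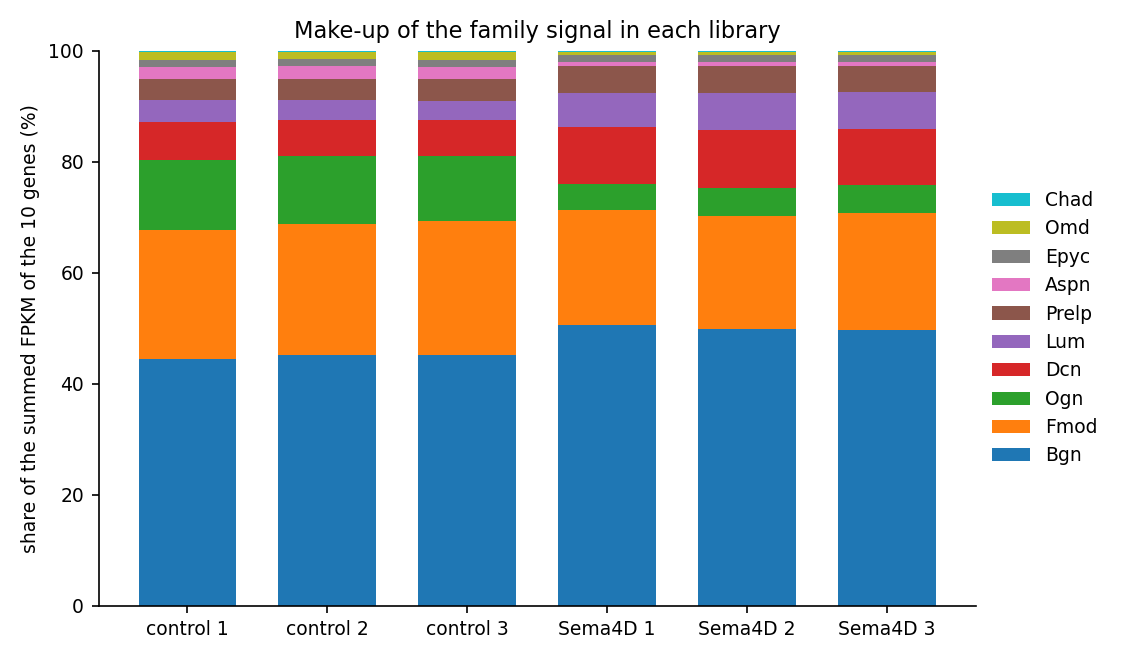
Share of each member in the summed FPKM of the 10 genes (y axis, percent) in each of the 6 libraries. Bgn and Fmod fill the lower part of every bar, the band of Ogn narrows from 12.2% to 4.99% of the sum, and those of Dcn and Lum widen.

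The classes did not move as units. In class I, Dcn rose, Aspn fell and Bgn did not pass, and the class sum was 2034 ± 11.8 and 2123 ± 16.1 FPKM. In class II, Lum and Prelp rose and Fmod and Omd fell, with sums of 1232 ± 12.5 and 1128 ± 16.6 FPKM. Both class III members fell, and their sum was 512 ± 15 and 217 ± 7.67 FPKM. The sums of classes I, II and III did not overlap between groups (each exact permutation p = 0.1, the smallest these groups allow). The higher class I sum was seen only in FPKM as deposited. As a share of all FPKM in a library, a scale added after the data were seen, class I was 0.412% ± 0.00281 in control and 0.406% ± 0.00255 with Sema4D, and the groups overlapped (exact permutation p = 0.2). On that scale classes II and III were again lower in every Sema4D library.

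Ratios within a library are unchanged by any single factor applied to that library, though not by quantile normalization. Dcn to Aspn, both of class I and both binders of TGF-beta, was 3.12, 2.86 and 2.95 in control and 14.4, 13.9 and 15.3 in Sema4D libraries, a 4.88-fold difference of means. Fmod to Lum, the pair that compete for collagen, was 5.91, 6.56 and 7.11 in control and 3.41, 3.06 and 3.10 in Sema4D libraries. Both pairs were apart between groups, with means of 2.98 ± 0.133 and 14.5 ± 0.742 for the first and 6.53 ± 0.605 and 3.19 ± 0.194 for the second. Fmod to Prelp went from 6.13 ± 0.133 to 4.28 ± 0.151, Dcn to Bgn from 0.147 ± 0.00683 to 0.205 ± 0.00373 and Ogn to Epyc from 9.29 ± 0.211 to 3.99 ± 0.159. Ogn to Omd, neighbours in the chromosome 13 row, moved least, from 9.07 ± 0.502 to 9.82 ± 0.271, and Lum to Dcn, neighbours on chromosome 10, from 0.553 ± 0.0229 to 0.631 ± 0.0421. No test was run on these ratios.

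**Figure D5:**
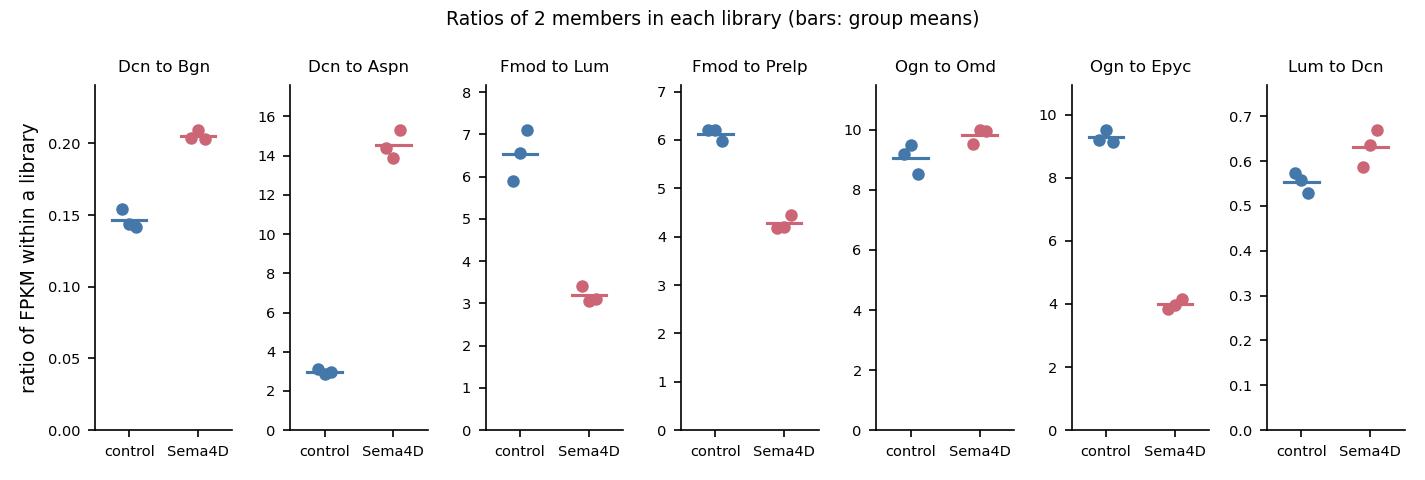
Ratio of FPKM of 2 members within each library (y axes, from 0) for 7 pairs, blue for control and red for Sema4D, with bars at the means of 3 libraries. Dcn to Aspn rises from 2.98 to 14.5 and Fmod to Lum falls from 6.53 to 3.19, while Ogn to Omd and Lum to Dcn shift by less.

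Of 8 other genes of the same superfamily, 5 passed the filter and were tested. Of these 4 rose and 1, Ecm2, fell (median log2 fold change 0.37), and the 3 under the filter had lower means with Sema4D. Over all tested genes 24.5% were higher and 22.2% lower, shares to set beside every list count below. Tsku, whose product tsukushi is a secreted modulator of BMP and Wnt signalling, rose from 10.5 ± 0.535 to 38.4 ± 0.822 FPKM (1.77, SE 0.043), a larger fold than any of the 10 members' rises. Its libraries were at 10.9, 9.93 and 10.8 FPKM in control and 38.4, 39.2 and 37.6 FPKM with Sema4D. Chadl, the chondroadherin-like gene, rose from 9.56 ± 0.334 to 16.6 ± 1.62 FPKM (0.74), the podocan gene Podn from 12.8 ± 0.356 to 16.3 ± 0.276 FPKM (0.32) and Podnl1 from 1.24 ± 0.201 to 1.89 ± 0.0771 FPKM (0.37, adjusted p = 0.00933). Nyx, known from the retina, was under the filter at 0.107 ± 0.0504 and 0.0487 ± 0.0418 FPKM, as were Kera and Optc.

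The enzymes that build the sugar chains were mixed, as were all tested genes, of which 24.5% were higher and 22.2% lower. Of 6 linker enzymes, which attach the first sugars to the core protein, 2 rose and 2 fell (median -0.01). Xylt1, the xylosyltransferase that starts the chain, fell from 62.1 ± 2.23 to 42.5 ± 2.02 FPKM (-0.54) and the xylose kinase gene Fam20b from 37.4 ± 0.648 to 31.9 ± 0.671 FPKM (-0.22). B4galt7 rose by 0.17 (adjusted p = 0.0269), as did Xylt2 by 0.13 (adjusted p = 0.0445). The 2 rises became 0 without Sema4D replicate 2 or 3 and after quantile normalization or median scaling, and 1 with every other library left out or with no filter.

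Of 15 tested chondroitin and dermatan enzymes, 5 rose and 5 fell (median -0.06), where 24.5% of all tested genes were higher and 22.2% lower. With a mean of at least 5 FPKM 3 rose. Both epimerase genes, whose enzymes turn chondroitin into dermatan sulphate, were among the rises: Dsel from 8.44 ± 0.244 to 13.7 ± 0.307 FPKM (0.64) and Dse from 41.6 ± 0.987 to 54.7 ± 1.2 FPKM (0.39). Chst15, which adds a second sulphate to chondroitin, rose from 0.952 ± 0.0435 to 3.94 ± 0.67 FPKM (1.33). It reached the filter of 1 FPKM only through its Sema4D values, so it could enter only as a rise. Of 4 tested keratan enzymes, 2 rose and 2 fell. B4galt1 went from 23.5 ± 0.435 to 33.5 ± 0.444 FPKM (0.49) and B3gnt2 from 12.8 ± 0.385 to 18.3 ± 0.449 FPKM (0.49). The sulphotransferase gene Chst2 fell from 5.97 ± 0.193 to 4.11 ± 0.193 FPKM (-0.45), and the list's other fall, of B4galt4, was lost without Sema4D replicate 1 and with a mean of at least 5 FPKM. With no filter on low values 4 keratan enzymes fell, B3gnt7 and Chst5 being the others.

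Genes of sulphate supply and tyrosine sulphation moved 1 way. All 5 tested members fell (median -0.62): the sulphate transporter gene Slc26a2 from 39.8 ± 0.744 to 21.4 ± 0.258 FPKM (-0.86), the sulphate donor synthase gene Papss2 from 177 ± 3.47 to 108 ± 1.65 FPKM (-0.71), Tpst1 from 44.0 ± 0.321 to 28.3 ± 1.05 FPKM (-0.62), Papss1 (-0.39) and Tpst2 (-0.33). The Tpst enzymes sulphate tyrosines such as those in the N-terminal part of fibromodulin, lumican and osteomodulin.

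Collagens, the main partners of the family, fell in 10 of 16 cases and rose in 1 (median -0.26), where 22.2% of all tested genes were lower and 24.5% higher. The rise was that of Col5a2 from 1026 ± 34.7 to 1230 ± 47.1 FPKM (0.26). With a pseudocount of 0.1, with a mean of at least 5 FPKM or without control replicate 2, 2 collagen genes rose, the other being Col3a1. The smallest p-values were those of Col14a1, a fibril-associated collagen (from 25.5 ± 1.54 to 15.1 ± 0.445 FPKM, -0.72), Col12a1 (from 245 ± 0.131 to 197 ± 2.92 FPKM, -0.31) and Col11a1, a partner of collagen II in cartilage fibrils (from 1359 ± 37.4 to 1020 ± 33.7 FPKM, -0.41).

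Proteases with family members among their substrates were mostly higher: of 8 tested, 6 rose and 2 fell (median 0.68). Their summed FPKM was 511 to 533 in control and 2114 to 2161 in Sema4D libraries. Mmp3, stromelysin, which cuts decorin, went from 0.412 ± 0.0665 to 1165 ± 16.7 FPKM (9.69), the collagenase gene Mmp13 from 4.62 ± 0.363 to 359 ± 5.17 FPKM (a ratio of means of 77.7) and the aggrecanase gene Adamts5 from 17 ± 0.671 to 33.3 ± 1.18 FPKM (0.93). Mmp3 reached the filter of 1 FPKM only through its Sema4D values, so it could enter only as a rise. The falls were those of Htra1 (-0.16, adjusted p = 0.00193) and Bmp1, whose protease trims the biglycan precursor (-0.11, adjusted p = 0.0388). The fall of Bmp1 was lost without control replicate 2 or 3 or Sema4D replicate 2 or 3, and with no variance trend.

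Of 13 receptors and growth factor partners, 8 rose and 4 fell (median 0.42), or 5 rose with a mean of at least 5 FPKM. Tlr2, a receptor for soluble biglycan, rose from 8.57 ± 0.201 to 150 ± 6.77 FPKM (3.98). The ligands Tgfb3 and Tgfb2, which bind decorin and its relatives, fell from 39.1 ± 0.893 to 17.3 ± 1.07 FPKM (-1.14) and from 40.4 ± 0.0426 to 20.4 ± 1.07 FPKM (-0.95). Tgfb1 went the other way, from 18.8 ± 0.719 to 34.7 ± 2.91 FPKM (0.85). Bmp2, 1 of the 8 rises, was at 0.826 ± 0.0473 and 1.99 ± 0.285 FPKM. It reached the filter of 1 FPKM only through its Sema4D values, so it could enter only as a rise.

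Chondrocyte markers were abundant in every library: Col2a1 was at 10506 ± 472 and 8796 ± 372 FPKM, and all 9 chondrocyte markers that matched by symbol fell, although the fall of Col2a1 was lost after quantile normalization (summed FPKM 14240 to 15369 in control and 11447 to 12376 in Sema4D libraries). Col2a1 fell least of the 9 on the log2 scale (-0.26). Hapln1, Acan and Matn3 had the smallest p-values among these markers. Their means fell from 216 to 114, 566 to 341 and 70.5 to 45.9 FPKM (-0.91, -0.73 and -0.61). Fibroblasts and tendon cells also express Dcn, Lum, Ogn and Aspn. Of 10 markers of those cells, none of them a member, 9 were tested. Of the tested markers 7 fell and 1 rose, where 22.2% of all tested genes were lower and 24.5% higher. Dpp4, 1 of the 7, was at 1.54 ± 0.225 and 0.614 ± 0.0649 FPKM. It reached the filter only through its control values, so it could enter only as a fall. The 10 markers summed to 3947 to 4249 FPKM in control and 3824 to 4005 FPKM in Sema4D libraries, most of it Col1a1 (4011 ± 159 and 3820 ± 89.5 FPKM). The tendon factor gene Mkx fell from 8.36 ± 0.106 to 2.79 ± 0.247 FPKM (-1.31) and the dermatopontin gene Dpt from 23.2 ± 1.05 to 11.5 ± 1.17 FPKM (-0.95), while Pdgfra, a receptor of mesenchymal cells, rose from 22.8 ± 0.678 to 42.3 ± 0.661 FPKM (0.86). So 7 markers moved in the direction of the chromosome 13 row and 1 in that of Dcn and Lum, and their part in the result was not tested. No marker of any list was at 0 in all 6 libraries. Osteoblast markers summed to 5.25 to 6.58 and 3.75 to 4.45 FPKM, macrophage markers to 22.9 to 30.4 and 19.6 to 22.0 FPKM, mostly Lyz2, and muscle markers to 4.96 to 5.55 and 3.63 to 4.81 FPKM. Of the osteoblast markers Alpl fell (-0.21, adjusted p = 0.049), of the macrophage markers Lyz2 (-0.46) and Tyrobp (-0.70), and no muscle marker passed. The call of Alpl was lost without any 1 library except Sema4D replicate 3. It was also lost with a pseudocount of 0.1, with no filter on low values and with a replicate block. Tyrobp, at 1.68 ± 0.654 and 0.636 ± 0.282 FPKM, reached the filter only through its control values, so it could enter only as a fall. Macrophage markers did not all go 1 way: Cd68 was at 2.65 ± 0.582 and 3.01 ± 0.515 FPKM (0.14, adjusted p = 0.412). Under the filter, Adgre1 was at 0.203 ± 0.108 and 0.673 ± 0.0979 FPKM, with groups that did not overlap, and Csf1r at 0.644 ± 0.122 and 0.804 ± 0.324 FPKM. The 5 endothelial markers summed to 0.0652 to 0.226 FPKM in control and 0.131 to 0.307 FPKM in Sema4D libraries, with Emcn listed at 0 in all control libraries.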

How the data were processed

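The deposited table holds FPKM for 24346 gene symbols in 6 libraries, with 0 columns outside the series. Per the submitters' processing notes the authors used Cufflinks 2.2.1, TopHat2 2.0.13, SAMtools 0.1.19, Bowtie2 2.2.3 and the build mm10, with no role or order given. Annotation, strand setting and scaling are not given in the sources used here. Because FPKM is a normalized unit, count models were not applied. Values were transformed to log2(FPKM + 1), and genes whose mean reached 1 FPKM (11603) were tested with limma 3.58.1 (trend, two-sided, no replicate block) in R 4.3.3, with Benjamini-Hochberg adjustment over all of them and a threshold of 0.05. Fold changes on this scale understate those of low genes. Depth came from 1681 genes with 1 transcript over 2000 nucleotides, less 200, in GENCODE M21. The FPKM worth of 1 fragment was chosen, near a first estimate, so that most low values were whole fragments to within 0.15. That share was 82.5% to 88.3% per library, too few to recover counts. Because the estimate was fitted to this share, the share is no check on it. Sums, ratios and exact permutation tests used Python 3.11.15 with scipy 1.17.1. Positions and promoters are from RefSeq GRCm38.p6, matched by symbol. Members and lists were chosen with earlier results of these data known. All members and other family genes are named, as are genes that overlap a member and tested genes that adjoin one. Of each other list that is not of cell type markers, the 3 with the smallest p are named. Further list members named with a value complete a count or a direction. They, the motifs, the locus windows and the form of the depth estimate were settled with the values in view. Alternatives were another pseudocount, other filters, 2 other scalings, no trend, a replicate block and each library left out.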

Additional observations from a re-analysis of the deposited data

How the results depend on the processing

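All 8 called members kept their direction under the 13 alternatives to the fit, and 7 kept their side of the threshold in all. Prelp alone missed it, after quantile normalization (0.0791). Among uncalled members, Bgn turned to -0.0413 after quantile normalization and -0.0187 after median scaling, and Chad to -0.0315 and -0.0348. Without single libraries Chad ranged from -0.0269 to 0.0785. The replicate numbers did not pair the libraries (correlations of same-numbered deviations 0.14, -0.08 and -0.05). With a replicate block the members were again 3 higher and 5 lower, 2638 genes were higher and 2356 lower, 1 linker enzyme was higher (Xylt2 was lost), 1 protease was lower (Bmp1 was lost), and no member's call changed. The ratio of summed FPKM was 0.918, or 0.833 without Bgn and 0.867 with columns scaled to 1 sum. On that last scale, added after the data were seen, the ratio for class I went from 1.04 to 0.986 and for class IV from 1.01 to 0.957. Counts in the lists that moved by over 1.5 times were, for rises, 2 collagens (pseudocount of 0.1; mean of at least 5 FPKM), 3 chondroitin and dermatan enzymes and 5 receptors (mean of at least 5 FPKM), and 1 linker enzyme with no filter and 0 after either scaling. For falls they were 4 keratan enzymes with no filter and 1 with a mean of at least 5 FPKM, 2 other family genes with no filter, and 1 protease with no variance trend. Leaving out single libraries gave 1 to 2 collagen rises, 0 to 1 linker rises, 1 to 2 keratan falls and 1 to 2 protease falls. Under the stricter filter fewer genes were tested, and with no filter more; otherwise the cause was not tested. Chad rested on 106 to 157 fragments per kilobase, and the part of depth in its spread was not tested.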
